A study of Mus musculus with 18 samples.

Results

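This comparison takes CD29 high cells of 3 mouse mammary tumors and sets the cells with high CD24 staining against those with low CD24 staining. Its members were chosen by sample title: the arrays of CD29H CD24H cells from tumors 1, 2 and 7 and the arrays of CD29H CD24L cells from the same tumors, which are 6 of the 18 arrays of the series. Each population of each tumor gave 1 array, so that n = 3 tumors and the comparison is paired by tumor. The other arrays hold the CD29L CD24H and CD29L CD24L cells of the same tumors (6 arrays), sorted normal mammary cells (5) and a reference RNA (1). Tumors 1 and 2 are labelled as transplant generation 1, and the label of tumor 7 names no generation. The labels give no genotype, strain or age and no treatment, and they name no gate against blood or endothelial cells. The study itself is known to have used mammary tumors of Trp53-null mouse epithelium that are passed on by transplantation, and it sorted the populations to transplant them and to profile their RNA. A transplanted tumor also holds connective tissue, vessels and leukocytes of its host.

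CD24 is a small glycoprotein anchored in the cell membrane that is abundant on mammary epithelial cells, and CD29 is the integrin beta1 chain, a receptor for extracellular matrix. In the normal gland, both proteins are used together to separate basal from luminal epithelial cells, and cells with little CD24 are mostly stroma. Fibroblasts make most of the interstitial matrix of a tumor: fibrillar collagens, small leucine-rich proteoglycans, elastic microfibrils, and the enzymes that process and degrade them. Epithelial cells that undergo a mesenchymal transition also make some of these products. In RNA of a sorted population, fewer cells of a type and less RNA per cell cannot be told apart.

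Values are probe-set intensities of one-colour Affymetrix arrays, called signal below, which the authors had scaled to an equal trimmed mean on every array. Differences are in log2(signal + 32), always CD29H CD24H minus CD29H CD24L, a scale that understates the change of dim genes. Of 18193 named genes, 10916 remained after the 40% with the lowest mean were left out. The test is limma with the tumor as a block on the 12 tumor arrays, with Benjamini-Hochberg adjustment over all genes tested and a threshold of 0.05. The number of tumors, 3 in each group, limits the precision. The actin 3'/5' signal ratio, which rises as RNA or its amplification product is shortened, was 72.5, 23.2 and 51.5 in CD29H CD24H cells of tumors 1, 2 and 7 and 56.8, 77.0 and 63.3 in CD29H CD24L cells. The GAPDH ratio was 31.3, 12.7 and 22.3 in the former and 32.2, 25.7 and 23.0 in the latter. The CD29H CD24H array of tumor 2 thus had the lowest value of both ratios among the 6 arrays.

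The transcript of the gate's own antigen did not separate the populations. Cd24a gave a signal of 34167, 27126 and 41276 in CD29H CD24L cells of tumors 1, 2 and 7 and of 44031, 33643 and 37305 in CD29H CD24H cells. The groups overlapped on this probe set, and the CD24 high cells were the higher in tumors 1 and 2. The difference was 0.18 ± 0.27 (SE; limma adjusted p = 0.790). Of the other Cd24a probe sets, 1 differed by 0.67, 0.55 and 0.07 in tumors 1, 2 and 7 (mean 0.43) and 1 by −0.05, 0.25 and 0.94 (mean 0.38), so the tumor with the largest difference depended on the probe set. On the array of normal CD24L cells the Cd24a signal was 845, far below each of the 6 tumor arrays. Itgb1, which encodes CD29, had signals of 3152, 5659.9 and 5620.3 in CD29H CD24L cells and 1893, 534 and 4529 in CD29H CD24H cells. On this probe set it was the lower in CD29H CD24H cells of each tumor, most of all in tumor 2, and the groups overlapped. Its difference of −1.46 ± 0.51 did not pass (adjusted p = 0.132), although it did with CD29H CD24L cells of tumor 7 left out (−2.02, adjusted p = 0.0405). On a second Itgb1 probe set the differences were −0.58, −3.44 and 0.06, so the CD29H CD24H cells of tumor 7 were not the lower there. Cd44, a hyaluronan receptor widely used beside CD24 to sort breast tumor cells, differed by −0.70 ± 0.23 (adjusted p = 0.114).

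Across the gate, 538 of 10916 genes passed (4.93%): 504 were lower in CD29H CD24H cells (4.62% of genes tested) and 34 were higher (0.311%). The lower genes, which included most genes of several matrix and fibroblast lists described below, had a median difference of −2.17 and 283 of them below −2. The higher genes had a median difference of 1.20 and none exceeded 1.78. Over all genes tested the median was 0.05. All 538 had the same sign in each tumor, against 4402 of all 10916 genes. The 3 values of one group lay wholly above those of the other in 468 of the 538 (449 of the lower and 19 of the higher), against 1530 of all 10916 genes (14%). The counts leaned on the pairing and on tumor 2: without the block 237 genes were lower (2.17%), all among the 504, and 0 were higher (927 had an unadjusted p under 0.05), and without all arrays of tumor 2 the counts were 269 and 0. At the edge of the threshold, Pnp, Gpc1 and Ccl8 were just inside (adjusted p = 0.0487 to 0.0489), and Anln, 5430405H02Rik and Rab25 just outside (0.0503 to 0.0510).

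**Figure D1:**
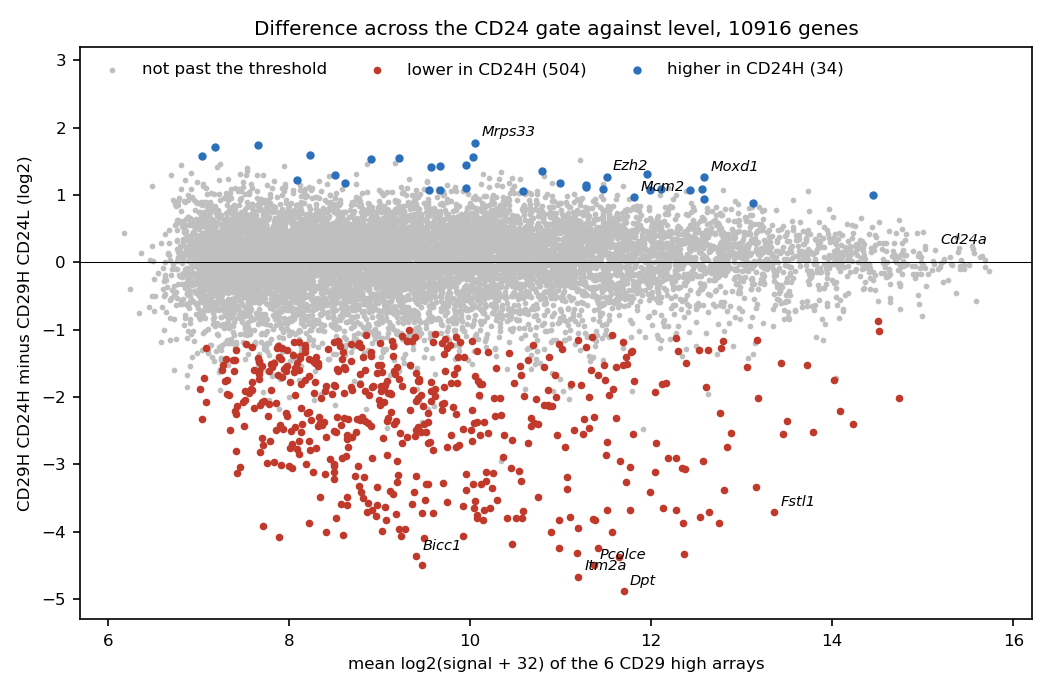
Difference across the CD24 gate (y axis, log2, CD29H CD24H minus CD29H CD24L) against the mean level of the 6 CD29 high arrays (x axis, log2(signal + 32)), with 1 point per gene tested. Red points are the 504 genes lower in CD29H CD24H cells, blue points the 34 higher ones and grey points the rest; the lower genes reach −4.89 (Dpt) and the higher ones 1.78 (Mrps33).

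Dermatopontin, Dpt, a matrix protein that binds decorin and collagen, had the largest difference. Its signal was 9122, 31397 and 20363 in CD29H CD24L cells and 406, 1147 and 408 in CD29H CD24H cells of tumors 1, 2 and 7. Every CD24 low array was far above every CD24 high array. The difference was −4.89 ± 0.77 (adjusted p = 0.000884). Pcolce, which speeds the removal of the procollagen C-terminal propeptide, gave 7951, 16966 and 14529 in CD24L and 1069.6, 552 and 232 in CD24H cells. The gap was narrowest in tumor 1 and widest in tumor 7, and the difference was −4.50 ± 0.52 (adjusted p = 9.83e-05). Decorin, Dcn, which coats collagen fibrils, gave 21730.4, 23081 and 26378 and 1567, 2503 and 365 in the same order. The CD24 low arrays lay close together, while the CD24 high arrays differed among tumors and were lowest in tumor 7 (−4.34 ± 0.63, adjusted p = 0.000495). Bicc1, an RNA-binding protein that represses translation, was even across tumors, with 2913, 3783 and 2535 in CD24L and 144, 127 and 86.2 in CD24H cells (−4.36 ± 0.40, adjusted p = 5.39e-05).

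The 20 largest falls, between −4.89 and −3.99, passed with and without the block and did not overlap between groups. Over all genes tested, 14% did not overlap. The 20 were chosen by size among genes that passed on these arrays, so both traits are partly built in. Of the 20 falls, 13 were members of the lists described below. Beside the genes above they held the transmembrane protein Itm2a (−4.67 ± 0.62), the fibroblast surface protein Pi16 (−4.50 ± 0.56), fibulin-3 (Efemp1, −4.38 ± 0.73) and the collagen chain Col5a3 (−4.31 ± 0.45). Further members were stromelysin-1 (Mmp3, −4.24 ± 0.42), the C1 inhibitor Serping1 (−4.24 ± 0.48), osteoglycin (Ogn, −4.18 ± 0.62) and the microfibril protein Mfap5 (−4.10 ± 0.44). Prostacyclin synthase (Ptgis, −4.07 ± 0.55), the secreted glutathione peroxidase Gpx3 (−4.07 ± 0.64), the imprinted gene necdin (Ndn, −4.06 ± 0.55) and Mmp23 (−4.05 ± 0.46) followed. The last ones were Cthrc1 (−4.01 ± 0.39), Col6a1 (−4.01 ± 0.58), tenascin-X (Tnxb, −4.00 ± 0.70) and the zinc finger gene Bnc2 (−3.99 ± 0.49).

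**Figure D2:**
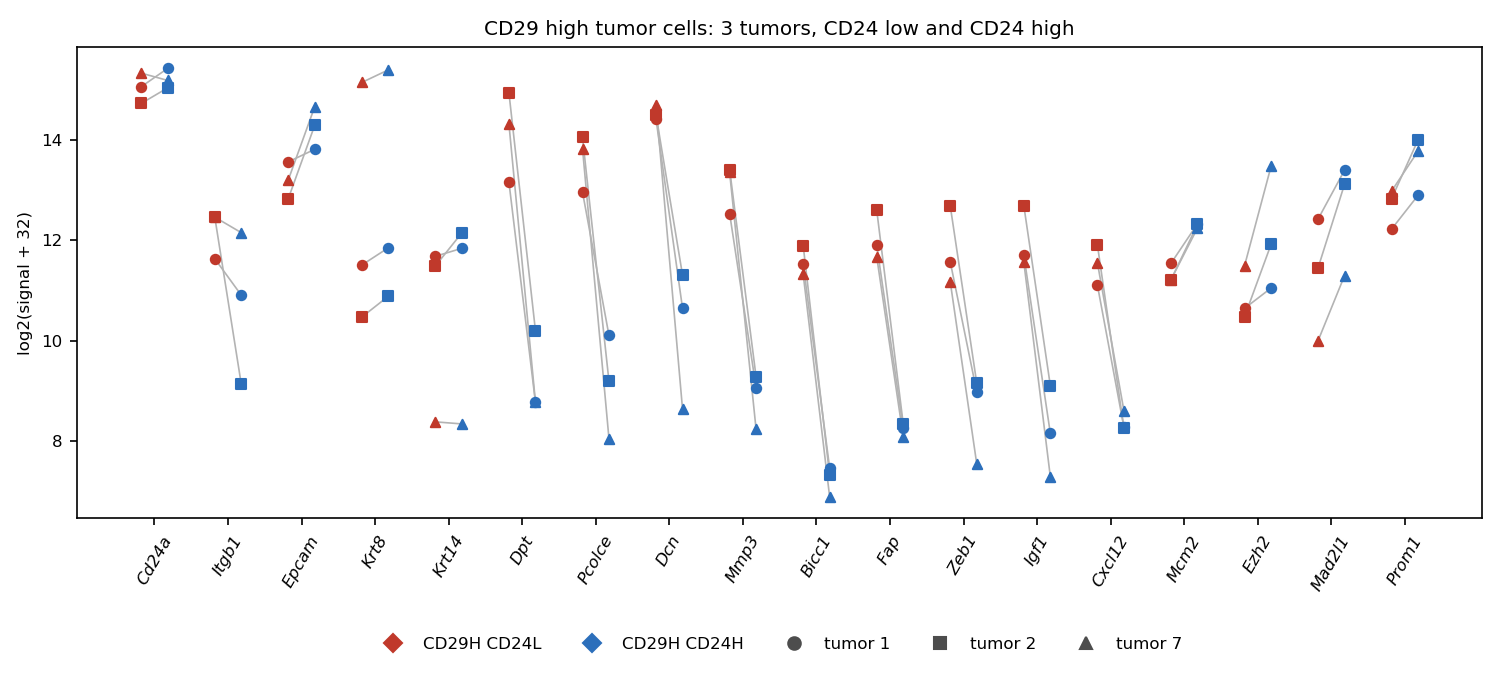
Level of 18 genes on each of the 6 CD29 high arrays (y axis, log2(signal + 32)), with CD29H CD24L cells in red, CD29H CD24H cells in blue, a marker shape for each tumor and a line joining the populations of 1 tumor. Dpt, Pcolce, Dcn, Mmp3, Bicc1, Fap, Zeb1, Igf1 and Cxcl12 fall in every tumor without overlap, Mcm2 is higher in every tumor without overlap, and Cd24a, Krt8 and Krt14 overlap.

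Promoters are shown for 4 genes that passed across the gate. Mmp3 and Il6 were chosen to look at the AP-1 motif, and Mcm2 and Ezh2 to look at the E2F motif. The stretches hold matches to 3 of the 5 motifs that were counted over all promoters. Those of Mcm2 and Ezh2 hold no E2F match. Mmp3 and Il6 were lower in CD29H CD24H cells and Mcm2 and Ezh2 were higher; Il6, an inflammatory cytokine, was picked after its values were seen. Each stretch is the 250 bases before the RefSeq transcription start (build GRCm38.p6), written 5′ to 3′ on the strand of the gene, and capitals mark motif matches on either strand. The Mmp3 stretch is chr9:7445572-7445821 (plus strand), that of Il6 is chr5:30012864-30013113 (plus), that of Mcm2 is chr6:88898781-88899030 (minus) and that of Ezh2 is chr6:47595031-47595280 (minus).
Mmp3: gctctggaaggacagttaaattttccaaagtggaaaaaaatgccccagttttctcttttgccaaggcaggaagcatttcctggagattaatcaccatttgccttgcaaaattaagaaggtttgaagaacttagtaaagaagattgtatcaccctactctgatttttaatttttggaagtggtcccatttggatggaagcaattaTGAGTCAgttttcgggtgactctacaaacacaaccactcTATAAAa
Il6: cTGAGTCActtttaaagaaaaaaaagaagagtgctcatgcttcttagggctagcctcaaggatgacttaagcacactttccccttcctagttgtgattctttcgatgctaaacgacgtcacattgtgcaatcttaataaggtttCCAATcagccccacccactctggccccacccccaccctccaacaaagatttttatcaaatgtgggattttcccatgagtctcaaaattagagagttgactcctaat
Mcm2: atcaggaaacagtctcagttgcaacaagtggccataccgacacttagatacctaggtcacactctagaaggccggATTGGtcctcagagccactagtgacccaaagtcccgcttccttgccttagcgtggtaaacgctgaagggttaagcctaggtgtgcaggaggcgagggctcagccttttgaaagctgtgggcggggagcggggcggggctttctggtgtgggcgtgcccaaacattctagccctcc
Ezh2: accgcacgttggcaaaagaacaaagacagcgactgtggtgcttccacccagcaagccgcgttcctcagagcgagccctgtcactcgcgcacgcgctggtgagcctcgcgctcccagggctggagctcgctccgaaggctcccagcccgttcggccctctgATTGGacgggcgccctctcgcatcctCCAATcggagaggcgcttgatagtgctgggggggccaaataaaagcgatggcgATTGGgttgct
In the Mmp3 stretch the capitals are an AP-1 motif (TGANTCA) and a TATA box (TATAAA). In that of Il6 they are an AP-1 motif and a CCAAT box, and in those of Mcm2 and Ezh2 they are 1 and 3 CCAAT boxes, of which those printed as ATTGG lie on the other strand. The 5 motifs searched were AP-1, TATA and CCAAT, the E2F motif TTTNNCGC and the ZEB and SNAI E-box CACCTG, all on both strands, and none of them contains another. Among 363 lower genes with a promoter in the table, the AP-1 motif was present in 11.6% and the TATA box in 15.7%, against 5.68% and 8.21% of 8839 promoters of genes tested. The CCAAT box was present in 34.99% of the lower genes and 40.2% of all, the E2F motif in 4.68% and 8.49%, and CACCTG in 15.7% and 18.2%. Among 27 promoters of the higher genes the AP-1 motif was present in 11.1%, a share close to that of the lower genes, and the TATA box and the E2F motif were each present in 3.70%, the CCAAT box in 37.0% and CACCTG in 25.9%. Promoters of the lower genes had a median of 57.6% G and C and 10 CpG dinucleotides, against 60.4% and 16 in all. These shares are a description, and a match is not a binding site.

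Genes for the fibres and the ground substance of connective tissue were lower as groups. In the list of fibrillar collagens 7 of 8 measured members tested were lower, against 4.62% of all genes tested, with a median of −2.31. Col1a2, a chain of type I collagen, gave 46574, 44233 and 41954 in CD29H CD24L cells of tumors 1, 2 and 7 and 10137, 12873 and 4420.1 in CD29H CD24H cells. Its groups did not overlap, and tumor 7 had the lowest value among the CD24 high arrays (−2.40 ± 0.51, adjusted p = 0.00930). Col1a1 (−2.91 ± 0.55) and Col3a1 (−2.02 ± 0.50) passed as well, and for these 3 the call was lost when the block was omitted (adjusted p = 0.103, 0.119 and 0.181). Another probe set of each differed by more and passed with the block: −3.14 for Col1a2, −3.28 for Col1a1 and −4.35 for Col3a1. Without the block, or without the CD29H CD24H array of tumor 2 or of tumor 7, 3 of the 8 passed. Of collagen VI and the fibril-associated collagens 7 of 14 were lower (median −1.74), among them all 3 chains of collagen VI tested: Col6a1, Col6a2 (−3.79 ± 0.43) and Col6a3 (−3.33 ± 0.44). Col17a1, a collagen of epithelial hemidesmosomes in the same list, differed by 1.07 ± 0.36 and did not pass (adjusted p = 0.117).

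The list of small proteoglycans, which also counts the decorin-binding protein Dpt, had the lowest median of the matrix lists, −3.72. Against 4.62% of all genes tested with the block and 2.17% without it, 7 of its 10 members tested were lower in both fits. They were Dpt and the proteoglycans Dcn, Ogn, biglycan (Bgn, −3.87 ± 0.58), fibromodulin (Fmod, −3.73 ± 0.55), asporin (Aspn, −3.72 ± 0.51) and lumican (Lum, −3.67 ± 0.55). Of 32 elastic fibre and glycoprotein genes 20 were lower (median −2.40). The matricellular protein Sparc gave 22059, 22534 and 24235 in CD24L and 4292, 1693 and 698 in CD24H cells of tumors 1, 2 and 7. The CD24 low arrays were again close together and the CD24 high arrays spread, tumor 1 being the highest (−3.71 ± 0.49, adjusted p = 0.000246); of its 3 probe sets, 1 differed by 0.17 and did not pass. Fibronectin (Fn1, −2.52 ± 0.36), periostin (Postn, −2.74 ± 0.42), tenascin-C (Tnc, −3.12 ± 0.46) and thrombospondin-2 (Thbs2, −3.68 ± 0.38) were also lower. Basement membrane genes, which epithelium makes as well, moved less: 3 of 16 were lower (Nid1 by −3.82 ± 0.38, Nid2 by −1.53 ± 0.41, and the laminin chain Lama2), the median was −0.64, and the count was 2 without the block and 1 of 12 with 60% of genes left out. Laminin-332 chains of epithelium in that list, Lama3 (0.67 ± 0.35, adjusted p = 0.359) and Lamb3 (0.64 ± 0.43, adjusted p = 0.482), did not pass.

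Enzymes that build, link and cut the matrix followed, with counts that stand against 4.62% of all genes tested. Of 21 genes of collagen processing and crosslinking 12 were lower (median −1.67), among them lysyl oxidase, which crosslinks collagen and elastin. Lox gave 19837, 19262 and 21019.8 in CD29H CD24L cells and 1962, 2167 and 546 in CD29H CD24H cells, without overlap (−3.88 ± 0.53, adjusted p = 0.000312). Loxl1 (−3.59 ± 0.40), the collagen uptake receptor Mrc2 (−3.55 ± 0.35) and cathepsin K (Ctsk, −3.54 ± 0.45) were lower too. The prolyl hydroxylase subunit P4ha1, which many cells use, differed by −0.10 ± 0.31 (adjusted p = 0.910). Of 9 matrix metalloproteinases 5 were lower (median −2.31): Mmp3, Mmp23, gelatinases Mmp2 (−3.38 ± 0.35) and Mmp9 (−2.67 ± 0.32), and the membrane type 1 enzyme Mmp14 (−2.31 ± 0.46). Other Mmp14 probe sets differed by −0.92 and −1.57 and did not pass. Mmp3 gave 5906, 10869 and 10450.5 in CD24L and 503, 589 and 269 in CD24H cells, again without overlap. Mmp7, a matrilysin of epithelial cells, did not pass (−0.35 ± 0.52, adjusted p = 0.781). Their inhibitors were lower together with them: 5 of 6 (median −2.65), including Timp1 (−3.36 ± 0.45), Timp2 (−1.75 ± 0.34) and Timp3 (−1.93 ± 0.37), of which 3 of 6 remained past the threshold without the block or without tumor 7. Of 19 ADAM and ADAMTS proteases 5 were lower (3 without the block), led by Adam12 (−3.29 ± 0.33) and Adam19 (−3.19 ± 0.41), and the median was −0.63.

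Surface and identity genes of fibroblasts were lower in 12 of 16 cases, against 4.62% of all genes tested, with a median of −2.93. The same number passed without the block, against 2.17% of all genes tested. Fap, a serine protease of activated fibroblasts, gave 3795, 6176 and 3225 in CD29H CD24L and 274, 293 and 240.1 in CD29H CD24H cells of tumors 1, 2 and 7. Both groups were tight and far apart (−3.83 ± 0.46, adjusted p = 0.000123). The PDGF receptor genes Pdgfrb (−3.53 ± 0.47) and Pdgfra (−2.37 ± 0.34), Thy1 (−3.53 ± 0.39), Cd34 (−3.79 ± 0.51) and the homeobox gene Prrx1 (−3.13 ± 0.47) were lower. Pdpn (−1.27 ± 0.54), S100a4 (−1.26 ± 0.54), Meox1 (−1.21 ± 0.37) and Osr1 (0.14 ± 0.36) did not pass. The mean level of the 16 genes was 7.29 to 8.41 in CD29H CD24H cells and 10.2 to 10.97 in CD29H CD24L cells, and it was 11.9 on the array of normal CD24L cells. On the same scale the mean of 30 epithelial junction genes was 10.9 to 11.5 in CD29H CD24H cells, 10.6 to 11.4 in CD29H CD24L cells and 7.64 on the normal CD24L array. The tumor CD24 low population therefore carried both fibroblast and epithelial transcripts, and how these were divided among cells was not measured.

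Markers of other cells of the tumor stroma had medians nearer to 0. Counts of lower members below stand against 4.62% of all genes tested. Of 10 pericyte and smooth muscle genes 3 were lower (median −1.40): the pericyte genes Rgs5 (−2.46 ± 0.34), Abcc9 (−2.06 ± 0.43) and Cspg4 (−1.16 ± 0.31); only Rgs5 and Abcc9 passed without the block, and 1 gene did with tumor 2 or its CD29H CD24L cells left out. Smooth muscle actin (Acta2), also made by myoepithelial cells, gave 12113, 13315 and 11906 in CD24L and 13004, 2929 and 831 in CD24H cells. It was nearly equal in tumor 1 and far lower in CD24 high cells of tumors 2 and 7, and it did not pass (−1.95 ± 0.62, adjusted p = 0.0977). Of 9 endothelial genes 3 were lower (median −1.21): Flt1 (−1.62 ± 0.36), Cdh5 (−1.46 ± 0.38) and Esam (−1.28 ± 0.30), and 0 passed without the block, without tumor 2 or with the CD29H CD24L cells of tumor 1 or 2 left out; with tumor 1 or the CD29H CD24H cells of tumor 1 or 2 left out, 1 did. The mean endothelial level was 7.16 to 7.92 in CD29H CD24H and 7.88 to 9.46 in CD29H CD24L cells. Of the leukocyte lists, 0 of 18 macrophage and myeloid, 0 of 7 T and NK cell, 0 of 5 B and plasma cell and 0 of 4 neutrophil and mast cell genes passed by limma in either direction. The pan-leukocyte gene Ptprc differed by −0.19 ± 0.45 (adjusted p = 0.875). Mean levels were 8.89 to 10.1 in CD29H CD24H and 9.74 to 10.6 in CD29H CD24L cells for the macrophage list, and 6.23 to 6.71 and 7.27 to 7.73 for the T and NK list. Lpl, a lipase of fat and other cells, was the lower member of 2 adipocyte genes tested (−2.54 ± 0.51; adjusted p = 0.0632 without the block, and lost with the CD29H CD24H cells of tumor 2 left out), and no erythroid gene was bright enough to test. The part of fibroblast, vessel and fat cell markers in the matrix differences was not tested. No tested gene of the fibroblast, pericyte or endothelial lists had a signal of 0 on the 6 arrays. That does not show their presence, because dim values may be background and no detection calls were used.

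**Figure D3:**
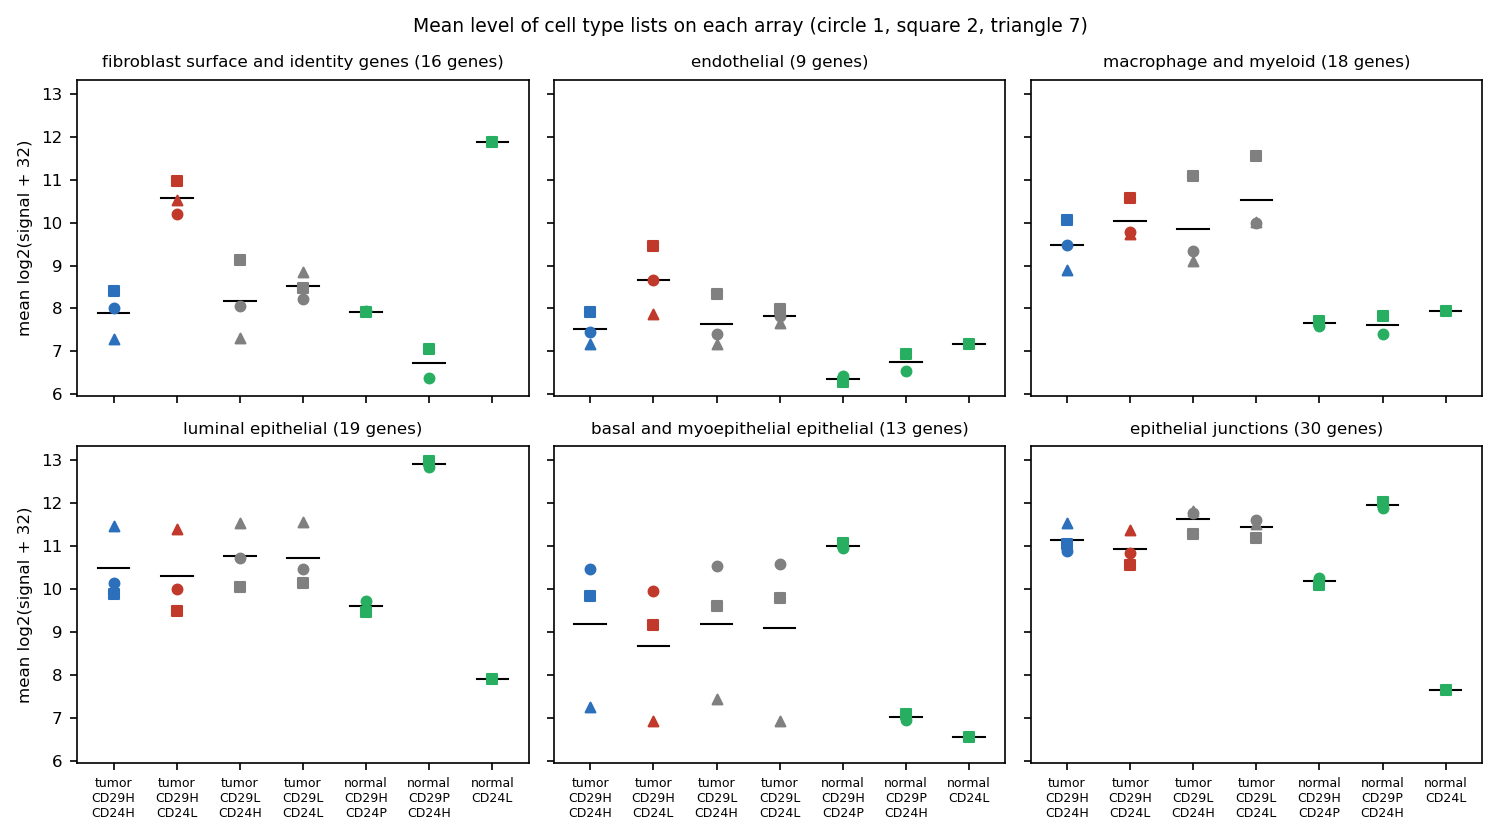
Mean level of 6 cell type lists on each sorted array (y axis, mean log2(signal + 32) of the list), by population (x axis), with a marker shape for each tumor or normal preparation and a bar for the group mean. The fibroblast list lies at 10.2 to 10.97 in CD29H CD24L cells and at 7.29 to 8.41 in CD29H CD24H cells of the tumors, while the epithelial lists overlap between both.

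Transcription factors and effectors of the mesenchymal transition were lower in part. Of 11 factors 5 were lower, against 4.62% of all genes tested (3 without the block, median −1.14). Zeb1, a zinc finger repressor of epithelial genes, gave 3004, 6528 and 2268 in CD29H CD24L and 471, 536 and 154 in CD29H CD24H cells. All CD24 low arrays were above all CD24 high arrays (−3.25 ± 0.44, adjusted p = 0.000290). Zeb2 (−2.31 ± 0.38; adjusted p = 0.144 without the block) and Prrx2 (−1.75 ± 0.37) were lower, as were Prrx1 and Twist2, which the fibroblast list also holds. Snai1 (−0.39 ± 0.38), Snai2 (−1.14 ± 0.63) and Twist1 (−0.14 ± 0.42) did not pass (adjusted p = 0.649, 0.378 and 0.911). Of 14 effectors 8 were lower (median −1.97), of which Cdh11, Sparc, Fn1, Axl, Fstl1 and Itga5 stand in other lists as well. Vimentin, the intermediate filament of mesenchymal cells, gave 24692, 29100.5 and 25285 in CD24L and 7073, 4763 and 3903 in CD24H cells, without overlap (Vim, −2.36 ± 0.32, adjusted p = 0.000305). The receptor kinase Axl was lower by −3.27 ± 0.51; N-cadherin (Cdh2) did not pass (−1.02 ± 0.49, adjusted p = 0.311). Among 14 integrin chains Itgb3 (−2.65 ± 0.47), the fibronectin receptor chain Itga5 (−2.13 ± 0.40) and the collagen receptor chain Itga1 (−1.66 ± 0.31) were lower (Itgb3 not without the block, adjusted p = 0.0543), and none of these was bright enough to be tested when 60% of genes were left out.

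Few epithelial genes passed across the gate, where 4.62% of all genes tested were lower and 0.311% higher. Of 19 luminal genes 1 was lower and 1 was higher (median 0.33), and of 13 basal genes, 30 junction genes and 13 epithelial regulators 0 passed by limma in either direction (medians 0.51, 0.23 and 0.35). Epcam, an epithelial adhesion protein, gave 12088, 7253 and 9408 in CD29H CD24L and 14387, 20072 and 25940.5 in CD29H CD24H cells. The CD24 high arrays were all above the CD24 low ones, by little in tumor 1, and the difference did not pass (1.06 ± 0.31, adjusted p = 0.0710). Krt8, a keratin of simple epithelium, gave 2881, 1387 and 36268 and 3665, 1862 and 43146. It varied more between tumors than across the gate, tumor 7 being far the highest in both populations (0.34 ± 0.47, adjusted p = 0.765). The basal keratin Krt14 was lowest in tumor 7, with 3255, 2845 and 302 in CD24L and 3640.3, 4513 and 293 in CD24H cells (0.26 ± 0.27, adjusted p = 0.672). E-cadherin (Cdh1) differed by 0.35 ± 0.34 (adjusted p = 0.644).

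The luminal genes that passed went opposite ways. Estrogen receptor alpha, Esr1, gave 877, 716 and 445 in CD29H CD24L and 420.2, 84.4 and 102 in CD29H CD24H cells. It was the lower in CD24 high cells of each tumor, without overlap (−1.84 ± 0.36, adjusted p = 0.00470), a call lost when the block was omitted (adjusted p = 0.283). Another Esr1 probe set differed by −1.63 and did not pass. Prominin-1 (CD133, Prom1), a membrane protein of luminal progenitors and of stem cell sorts, gave 4763, 7273 and 8069 in CD24L and 7614, 16425 and 14069 in CD24H cells. It was the higher in CD24 high cells of each tumor, but its CD24 high value in tumor 1 lay below the CD24 low value of tumor 7 (0.88 ± 0.24, adjusted p = 0.0474, and 0.621 without the block). Among 19 surface genes used to mark mammary stem and progenitor cells, Prom1 was the higher one and Thy1, Itgb3 and the protein C receptor Procr (−2.12 ± 0.35) were lower. Itga6 (0.71 ± 0.26, adjusted p = 0.168), Kit (0.43 ± 0.27, adjusted p = 0.458) and Lgr5 (0.23 ± 0.40, adjusted p = 0.827) did not pass.

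Of the lists of secreted signals and their receptors, those of PDGF and VEGF, IGF, TGF-beta ligands and receptors, and Wnt ligands and antagonists had several lower members, and the Wnt receptor, Notch and Hedgehog, FGF and EGF lists had 1 or 0. In the PDGF and VEGF list 9 of 17 were lower, against 4.62% of all genes tested, with the receptors Pdgfra and Pdgfrb of the fibroblast list. The count was 3 without the block and 4 without tumor 2, and the median was −1.32. The lymphatic growth factor Vegfd gave 655, 1869 and 1091 in CD29H CD24L and 93.8, 36.4 and 22.9 in CD29H CD24H cells, without overlap (−3.87 ± 0.49, adjusted p = 0.000183). Vegfc (−2.43 ± 0.49) and Pdgfd (−2.48 ± 0.48) were lower, and neither Vegfa (−0.93 ± 0.39, adjusted p = 0.234) nor Pdgfb (−0.18 ± 0.30, adjusted p = 0.824) passed. Of the IGF axis 4 of 13 were lower (median −0.91). Igf1, which acts on epithelial IGF receptors, gave 3293, 6557 and 2988 and 253, 518 and 124 in the same order. The CD24 low arrays lay far above the CD24 high ones (−3.80 ± 0.45, adjusted p = 0.000121), while its receptor Igf1r did not pass (−0.70 ± 0.38, adjusted p = 0.367). The count was 2 with tumor 7, either of its CD29 high populations, or the CD29H CD24L cells of tumor 2 left out.

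Of the TGF-beta family, 3 of 7 ligands were lower, Inhba (−2.40 ± 0.35), Tgfb3 (−1.25 ± 0.30) and Tgfb2 (−1.12 ± 0.30), of which 1 passed without the block; 1 passed with any CD29 high array or tumor left out other than the CD29H CD24H cells of tumor 1, where 3 did. Tgfb1 did not pass (0.40 ± 0.33, adjusted p = 0.579). Of 15 receptors and antagonists 5 were lower, the receptors Bmpr1b (−2.21 ± 0.40), Tgfbr2 (−1.31 ± 0.33) and Tgfbr3 (−1.49 ± 0.37), the follistatin-like protein Fstl1 (−3.71 ± 0.54) and the BMP antagonist gremlin (Grem1, −1.75 ± 0.37); 3 passed without the block, 2 without tumor 2, either of its CD29 high populations or tumor 7, and 1 with the CD29H CD24L cells of tumor 7 left out. In the Wnt lists, 5 of 16 ligands and secreted antagonists were lower, 4 of them antagonists: Dkk2 (−2.71 ± 0.44), Sfrp4 (−2.39 ± 0.48), Sfrp2 (−2.37 ± 0.56) and Dkk3 (−1.47 ± 0.38). The fifth was the ligand Wnt9a (−2.13 ± 0.45), and 1 of the 5 passed without the block, 3 without tumor 2, tumor 7, either CD29 high population of tumor 2 or the CD29H CD24L cells of tumor 7, and 2 with the CD29H CD24H cells of tumor 7 left out. Of 24 Wnt receptors and feedback targets and of 18 Notch and Hedgehog genes 0 passed in either direction by limma; Axin2, a Wnt feedback target, differed by 0.17 ± 0.32 (adjusted p = 0.843). The keratinocyte growth factor Fgf7 was the lower one of 13 FGF and HGF genes (−2.01 ± 0.41), a call lost without tumor 2 or either of its CD29 high populations, and epiregulin (Ereg) of 10 EGF family genes (−2.56 ± 0.56; adjusted p = 0.186 without the block, and lost as well without tumor 2, either of its CD29 high populations or the CD29H CD24H cells of tumor 1). Both counts and the other counts of lower genes in this paragraph stand against 4.62% of all genes tested. Another Fgf7 probe set differed by −0.92 and did not pass. Egfr, with 1536, 959.5 and 1282 in CD24L and 1339, 164 and 13.9 in CD24H cells, was nearly equal in tumor 1 and much lower in CD24 high cells of tumors 2 and 7, and did not pass (−2.46 ± 0.70, adjusted p = 0.0585). Of 7 CCN and YAP target genes 4 were lower, led by Ccn3 (−3.67 ± 0.48) and Ccn4 (−3.11 ± 0.36); the count was 3 without the block and 2 of 5 with 60% of genes left out.

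Some complement and chemokine genes were lower, against 4.62% of all genes tested. Of 10 complement genes 5 were lower (median −1.58; 3 of 4 tested with 60% of genes left out, with a median of −3.51, and a median of −0.82 with no filter), including C2 (−3.76 ± 0.36), C1s1 (−3.25 ± 0.54) and factor B (Cfb, −2.35 ± 0.32), with the C1 inhibitor Serping1 counted among them. Of 25 chemokine genes 9 were lower (5 without the block or without tumor 2; median −0.79). Cxcl12, the stromal ligand of CXCR4, gave 2173, 3806 and 2969.9 in CD29H CD24L and 278, 275 and 358 in CD29H CD24H cells. Its groups were tight and did not overlap on this probe set (−3.14 ± 0.33, adjusted p = 6.36e-05). Another Cxcl12 probe set differed by −2.12 and passed, and a further one differed by −0.43 and did not. Ccl7 (−3.59 ± 0.39), Ccl2 (−2.65 ± 0.43), Ccl11 (−2.81 ± 0.37), Cxcl5 (−2.86 ± 0.44) and Cxcl14 (−2.68 ± 0.38) were lower, and Cxcl1 (−0.58 ± 0.27, adjusted p = 0.295) and the receptor Cxcr4 (0.28 ± 0.44, adjusted p = 0.802) did not pass. Of 21 interferon response genes and 7 class II antigen presentation genes 0 passed by limma; the interferon median was −0.71.

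**Figure D4:**
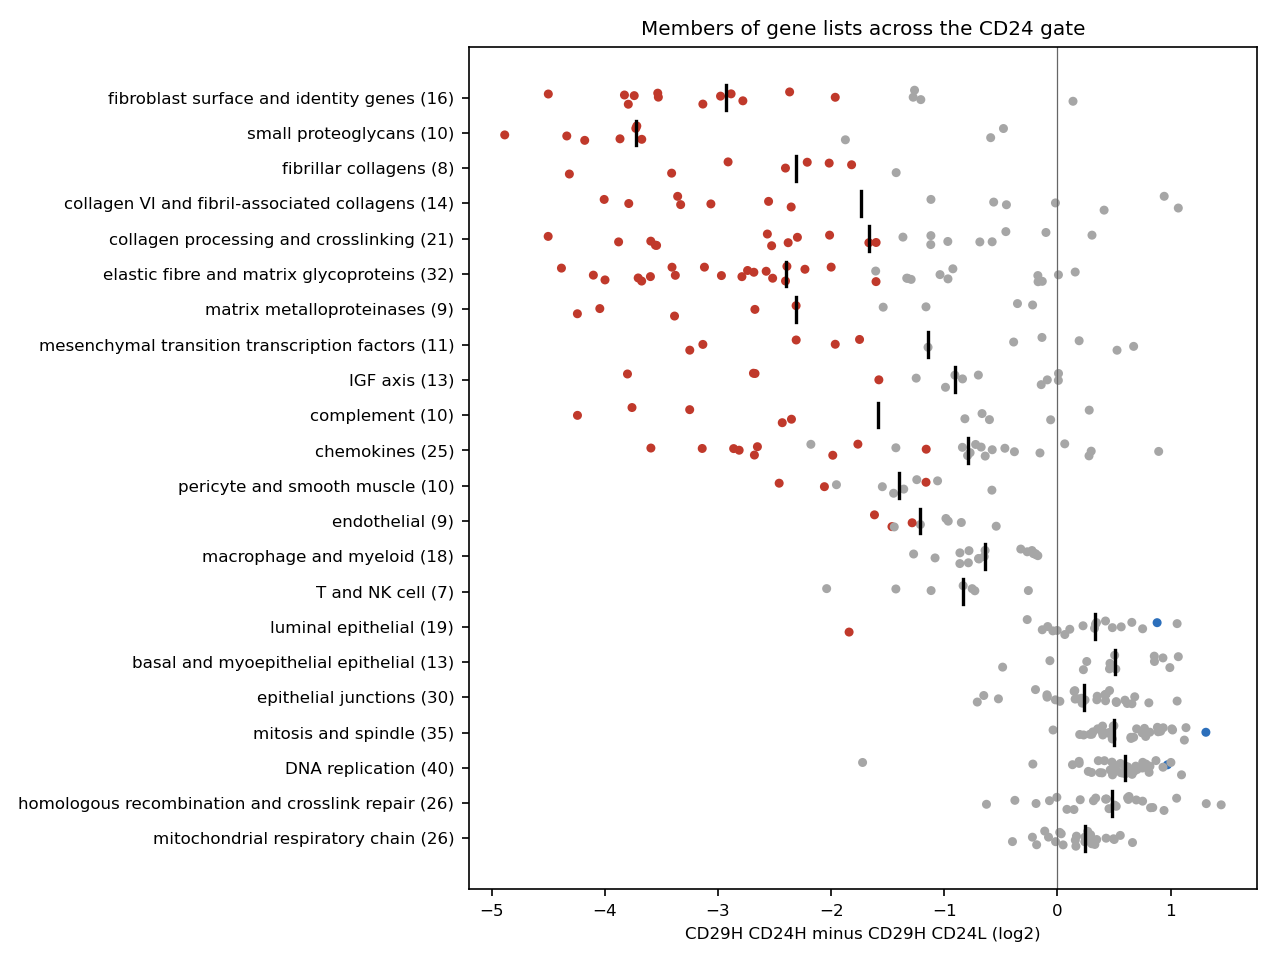
Difference across the CD24 gate (x axis, log2, CD29H CD24H minus CD29H CD24L) for the tested members of 22 gene lists (rows, number tested in brackets), with a bar at the median of each list. Red points passed as lower and blue points as higher in CD29H CD24H cells; the first 6 lists, of fibroblast and matrix genes, have medians between −3.72 and −1.67, and the replication and mitosis lists medians of 0.60 and 0.50 with 1 member past the threshold in each.

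Few genes of any list were higher in CD29H CD24H cells. Of 40 DNA replication genes 1 was higher (median 0.60), and of 35 mitosis and spindle genes 1 (median 0.50), against 0.311% of all genes tested. Mcm2, a subunit of the replicative helicase, gave 2951, 2343 and 2350.2 in CD29H CD24L and 5117, 5073 and 4821 in CD29H CD24H cells of tumors 1, 2 and 7. Both groups were tight and did not overlap (0.97 ± 0.25, adjusted p = 0.0329, and 0.132 without the block), and the call was lost when any CD29 high array or tumor was left out. Mad2l1, of the spindle checkpoint, gave 5473, 2774 and 993 and 10784, 8874 and 2489. It was higher in each tumor, but tumor 7 was lowest in both populations and the groups overlapped (1.31 ± 0.35, adjusted p = 0.0400, and 0.743 without the block); this call was lost when any CD29 high array was left out. The proliferation marker Mki67 (0.70 ± 0.30, adjusted p = 0.240), Pcna (1.00 ± 0.35, adjusted p = 0.133) and Top2a (0.41 ± 0.31, adjusted p = 0.528) did not pass. In the polycomb and chromatin list Ezh2, the histone H3 lysine 27 methyltransferase, was the higher one of 18 (median 0.40). Ezh2 gave 1568, 1395 and 2852 in CD24L and 2087, 3839 and 11343 in CD24H cells, with a difference of 0.41 in tumor 1 and of 1.98 in tumor 7 (1.27 ± 0.30, adjusted p = 0.0193); the groups overlapped. The call was lost when the block was omitted (adjusted p = 0.660) and without tumor 2 (0.221) or tumor 7 (0.278). Of 26 homologous recombination genes and 34 other DNA damage genes 0 passed (medians 0.48 and 0.46), Brca1 differing by 0.70 ± 0.31 (adjusted p = 0.249) and Rad51c by 1.32 ± 0.37 (adjusted p = 0.0563).

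Promoters of the replication and mitosis lists held more CCAAT boxes than promoters in general: 66.7% of 33 and 75.9% of 29, against 40.2%. The E2F motif was present in 27.3% and 10.3%, against 8.49%, and these shares include the many members that did not pass across the gate.

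The 20 largest rises, between 1.15 and 1.78, were led by Mrps33, a protein of the mitochondrial ribosome. Its signal was 461, 518 and 670.2 in CD29H CD24L and 569.7, 3952 and 3183 in CD29H CD24H cells. It was much higher in tumors 2 and 7 and little so in tumor 1, whose CD24 high value lay below the CD24 low value of tumor 7 (1.78 ± 0.42, adjusted p = 0.0214). BC055324 was more even, with 616, 722 and 431 and 1710.4, 2521 and 1303, and did not overlap (1.57 ± 0.34, adjusted p = 0.0116). Others were the fatty acid oxidation enzyme Echs1 (1.72 ± 0.44), the vesicle tethering protein Vps50 (1.59 ± 0.43), the retinoic acid binding protein Crabp2 (1.59 ± 0.40) and Epb41l5 (1.55 ± 0.39), a cytoskeletal linker of the FERM family. The glycine receptor subunit Glrb (1.53 ± 0.36), the splicing regulator Mbnl3 (1.36 ± 0.30), the ectodysplasin receptor Edar (1.22 ± 0.31) and the anaphase-promoting complex subunit Anapc1 (1.18 ± 0.29) were among them too. The remaining ones were 4933431E20Rik, Immp1l, Irf2bpl, Tpd52l1, Mad2l1, Ccdc58, Ezh2, Moxd1, Zfp329 and Shcbp1. Of these 20, 10 had another probe set tested, and 0 of the 10 had one that passed; those of Anapc1 differed by 0.05, 0.07 and 0.36 and that of Irf2bpl by −0.16. Among the 20 falls 7 had another probe set tested, and all of these passed. Of the 20 rises, 0 passed without the block by limma, 10 did not overlap between groups and 2 were members of the lists. Over all genes tested, 14% did not overlap between groups. The CD29H CD24H array of tumor 2 had the lowest 3'/5' ratios of the 6. In tumor 2, 81 of all genes tested were over 2, against 4 in tumor 1 and 26 in tumor 7. Genes under −2 were also most frequent in tumor 2, with 515 against 263 in tumor 1 and 419 in tumor 7. The part of RNA quality in the rises or the falls was not tested. Without the CD29H CD24H array of tumor 2, 1 gene was higher and 317 were lower.

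Several other groups had few or no genes past the threshold. Of 26 respiratory chain genes 0 passed (median 0.24), of 17 p53 target genes 0 and of 24 G1 cyclin and inhibitor genes 0 by limma. Hexokinase 2 (Hk2, −1.56 ± 0.39) was the lower one of 19 hypoxia and glycolysis genes, a share near the 4.62% of all genes tested; its call was lost without the block (adjusted p = 0.648) and when any CD29 high array or tumor 1 or 2 was left out. Of 24 immediate early and stress genes, which dissociation of tissue can induce, Fosb (−1.59 ± 0.34) and Zfp36 (−1.08 ± 0.29) were lower (adjusted p = 0.0102 and 0.0440), and the call was lost without the block (0.114 and 0.570); with any CD29 high array or tumor left out, 0 or 1 of these genes of the list passed. Fos (−0.17 ± 0.23) and Hspa1a (−0.26 ± 0.23), also of that list, had adjusted p = 0.762 and 0.607. The list of Hox and T-box genes had a median of −1.35, with 9 of 11 negative, and medians of −1.35 to −0.13 among the alternatives. Of the 11, 2 were lower, against 4.62% of all genes tested. These were Tbx18 (−2.49 ± 0.37) and Hoxc8 (−2.31 ± 0.53), of which Tbx18 also passed without the block. With an array or tumor left out the count was 0 (without tumor 1, or the CD29H CD24L cells of tumor 1 or 2) to 4 (without the CD29H CD24L cells of tumor 7).

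The tumors differed in the extent of the separation. The genes that passed were chosen by a test on these same tumors, so their shared direction is no independent support. The median difference of the 504 lower genes was −1.85 in tumor 1, −2.52 in tumor 2 and −2.17 in tumor 7, and that of the 34 higher genes was 0.77, 1.49 and 1.41. By these medians tumor 1 had the smallest separation in both directions. Across genes, which are not independent replicates, the differences of tumors 1 and 2 correlated at 0.614, those of tumors 1 and 7 at 0.428 and those of tumors 2 and 7 at 0.442. Single genes departed from this order. Grb10, an adaptor of insulin and IGF receptors named here after its values were seen, differed by −3.54 in tumor 1 and −4.16 in tumor 2 but by −0.52 in tumor 7, and its call was lost when the block was omitted (adjusted p = 0.272). In the other direction, Col6a1 differed by −6.12 in tumor 7 and by −3.03 and −2.86 in tumors 1 and 2.

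The same gate was then compared within CD29 low cells, whose arrays are separate from those above. There, 10 of 10916 genes passed (0.0916%), 1 higher and 9 lower in CD29L CD24H cells, and 2 without the block. Of the 504 genes lower in the CD29 high cells, 348 were negative in the CD29 low cells with a median of −0.22, and 1 passed. Of the 34 higher genes, 18 were positive there and 0 passed by limma. The median of all genes tested was 0.06 in the CD29 low cells. Both sets were chosen by their CD29 high values, so smaller differences on the CD29 low arrays are partly built in. The test of the difference between both gates passed for 211 genes (1.93%), 191 negative (1.75%) and 20 positive (0.183%). Of the 538 genes described above, 191 passed it. The 538 were chosen by the CD29 high difference, which this contrast contains, so their share is partly built in. Without the block 0 genes passed that test, while 646 had an unadjusted p under 0.05, and without tumor 2 also 0.

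Among genes that passed, the 5 most negative differences between the gates were those of Bicc1, Dpt, Col5a3, Srpx2 and Mrc2. Bicc1 differed by −4.36 ± 0.40 in CD29 high and by 0.41 ± 0.40 in CD29 low cells, and the effects differed by −4.77 ± 0.56 (adjusted p = 0.00216). Dpt (−4.69 ± 1.09, adjusted p = 0.0390), Col5a3 (−4.26 ± 0.63, adjusted p = 0.00781), the secreted protein Srpx2 (−4.16 ± 0.76, adjusted p = 0.0165) and Mrc2 (−4.07 ± 0.50, adjusted p = 0.00216) followed. Of the fibroblast list 9 of 16 members passed, and of the glycoprotein list 12 of 32, against 1.93% of all genes tested. These lists were already lower in the CD29 high cells, a difference that the contrast contains. Dcn, which differed by −0.92 in CD29 low cells, did not pass (−3.42 ± 0.89, adjusted p = 0.0717). Esr1 passed this test with effects of opposite sign, −1.84 ± 0.36 in CD29 high and 1.05 ± 0.36 in CD29 low cells (−2.90 ± 0.50, adjusted p = 0.0133). Its effect in CD29 low cells did not pass by itself. The mean level of the fibroblast list was 8.05, 9.14 and 7.31 in CD29L CD24H cells and 8.21, 8.49 and 8.84 in CD29L CD24L cells of tumors 1, 2 and 7, below each of the CD29H CD24L arrays.

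Among the positive differences between the gates was a gene of the T and NK list. Ms4a4b, a T cell membrane protein, was lower in CD29L CD24H than in CD29L CD24L cells by −3.81 ± 0.49 and differed by −0.73 ± 0.49 across the gate in CD29 high cells (3.08 ± 0.70, adjusted p = 0.0365). The interleukin-18 receptor gene Il18r1 was also lower in CD29L CD24H cells, with −2.73 ± 0.42 in CD29 low and 0.15 ± 0.42 in CD29 high cells (2.88 ± 0.60, adjusted p = 0.0247). The mean of the T and NK list was 10.1, 8.72 and 9.47 in CD29L CD24L cells of tumors 1, 2 and 7 and at most 7.73 in either CD29 high population. The other large positive ones were Atp5l (3.14 ± 0.67, adjusted p = 0.0270), Gm12338 (3.05 ± 0.70, adjusted p = 0.0376) and the ribosomal protein gene Rpl41 (3.03 ± 0.72, adjusted p = 0.0432), 0 of which passed in the CD29 high cells by limma.

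**Figure D5:**
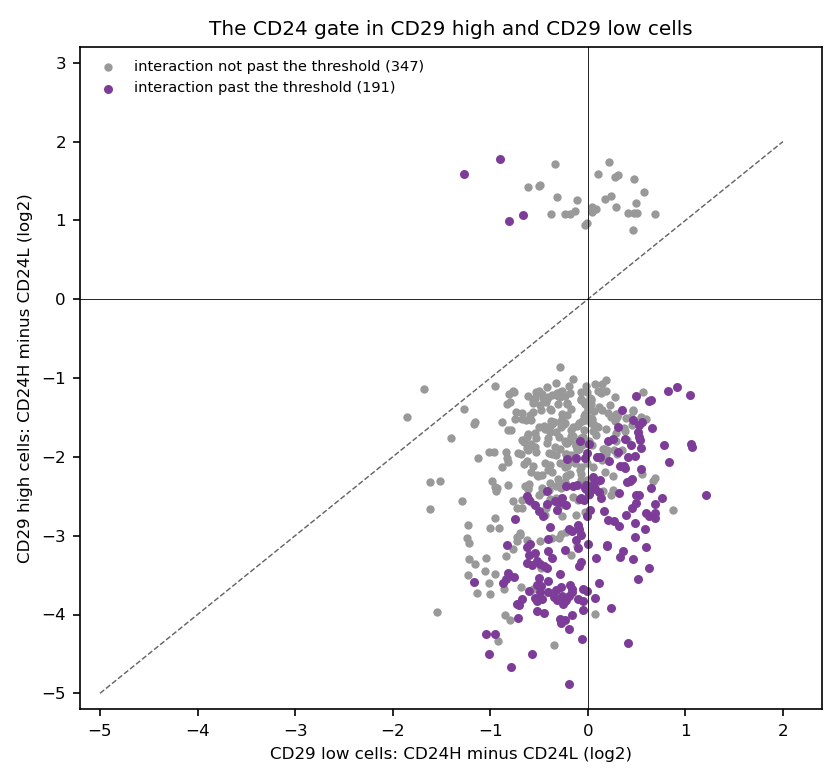
Difference across the CD24 gate in CD29 high cells (y axis) against that in CD29 low cells (x axis), both log2 and CD24H minus CD24L, for the 538 genes that passed in CD29 high cells; the dashed line marks equal values. Purple points are the 191 genes whose effects differed between the gates and grey points the rest. The lower genes have a median of −2.17 on the y axis and of −0.22 on the x axis. All genes shown were chosen by their y values, so smaller x values are partly built in.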

How the data were processed

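The deposited value table gives a signal intensity per probe set, on a linear scale, for 18 one-colour arrays. The submitters' processing notes name GCOS, without a version, and per the labels' protocols the RNA of each sort went through 2 cycles of T7 amplification after a kit extraction. The mean trimmed by 2% at each end was equal on every array; further steps are not given in the sources used here. No detection calls were used, and dim values may be background.

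Groups and tumor numbers came from the sample titles. Of 45101 probe sets, 34945 have 1 gene symbol in the platform annotation given with the table; those with several (932) or none (9160) were not named, so some genes are missing. For 18193 genes the brightest probe set by mean log2(intensity + 32) was taken, and the 40% with the lowest mean over the 12 tumor arrays were left out. Of the 538 genes that passed, 209 had over 1 probe set tested, of which 15 had one of opposite sign, 1 of these past the threshold. The model, 4 group means and the tumor as a block with 6 residual degrees of freedom, was fitted in R 4.3.3 by limma 3.58.1 (eBayes with trend), and all adjusted p-values are limma's with Benjamini-Hochberg adjustment. The difference between the CD24 gates was a contrast in the same fit. The pairing comes from the titles, where 1 number is 1 tumor. Array deviations around their group averages had correlations of 0.389 to 0.728 within a tumor (18 pairs) against −0.458 to −0.0526 across tumors. Because each group was centred on its own average, positive values within a tumor bring negative ones across tumors, so the contrast is partly built in. The procedure was tested on simulated data.

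The members and the 52 gene lists (1022 genes, 942 measured and 780 tested) were chosen with earlier results of these data known, so a list's count is a description and not independent support. Genes named are Cd24a and Itgb1, the 20 largest differences per direction past the threshold with the same sign in 3 tumors, list members beside the count of their list, and the 5 largest per direction in the difference between gates; Il6, Grb10 and those of the closing section were added after their values were seen. Cd44 and Ptprc are list members. Alternatives were offsets of 1 and 128, quantile normalization, a median shift, no filter and a 60% filter, the mean of a gene's probe sets or each set by itself, no intensity trend, no block, a random block, the 6 arrays alone, and leaving out each array or tumor. Promoters are RefSeq's on GRCm38.p6; no genome was used. The Cd24a promoter was not used here.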

Additional observations from a re-analysis of the deposited data

Results flagged for a closer look

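The effect of the CD24 gate was tested for a difference between CD29 high and CD29 low tumor cells, an interaction in limma's fit with the tumor as a block, and 211 genes passed. This count was 0 without the block and 0 without tumor 2, so each call below rests on the pairing and on that tumor. Negative values mean that the transcript was lower in CD24 high cells by more within the CD29 high gate.

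Of the negative ones, members of the lists of matrix proteins, matrix enzymes and inhibitors were Dpt (−4.69), Col5a3 (−4.26), Mrc2 (−4.07), Ogn (−3.98), Mfap5 (−3.83), Pcolce (−3.49), Mmp23 (−3.33), Serping1 (−3.29) and Mmp3 (−3.20). The RNA-binding protein Bicc1 (−4.77), the secreted protein Srpx2 (−4.16), the fibroblast surface protein Pi16 (−3.92), Itm2a (−3.88), the secreted protein Cthrc1 (−3.84), prostacyclin synthase Ptgis (−3.84), necdin Ndn (−3.77) and the zinc finger gene Bnc2 (−3.53) were negative too. In the CD29 low cells 0 of the 17 passed by limma, and the tumors went different ways: among the 17, Mrc2 (positive) and Mmp23 and Mmp3 (both negative) had 1 sign in all tumors. Ogn, for example, differed there by 0.12, 2.08 and −2.79 in tumors 1, 2 and 7, and Ptgis by −0.86, 1.91 and −1.76.

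The positive ones were Atp5l (3.14), Ms4a4b (3.08), Gm12338 (3.05), Rpl41 (3.03), Il18r1 (2.88), Crabp2 (2.86) and Mrps33 (2.68). Of these, Crabp2 and Mrps33 passed as higher across the gate in CD29 high cells, and Ms4a4b and Il18r1 passed as lower in CD29L CD24H cells (−3.81 ± 0.49, adjusted p = 0.00726, and −2.73 ± 0.42, adjusted p = 0.0253). Atp5l, Gm12338 and Rpl41 passed in neither gate by itself.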

How the results depend on the processing

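No alternative reversed a direction of the results compared. The count of lower genes was 504 and stayed within 1.5 times under most alternatives. It was 299 with 60% of genes left out, where fewer genes were tested, 237 with no replicate block, and 269 to 462 when an array or tumor was left out, lowest without tumor 2; leaving out tumor 2's CD24H or CD24L cells of the CD29 high gate gave 317 and 313. Those 237 and the 299 are all among the 504. The count of higher genes, 34, was 0 with no replicate block, 19 with tumor as a random block (consensus correlation 0.421), 14 with the 6 CD29 high arrays alone, and 0 to 35 when an array or tumor was left out. It was 0 without tumor 2, 1 and 2 without those same populations, 12 without tumor 7 and 15 without either CD29 high population of tumor 7. The 211 genes whose gate effects differed became 87 with an offset of 1, 104 with no filter, 137 with 60% left out and 0 with no replicate block; they were 0 to 215 when an array or tumor was left out (0 without tumor 2, 31 and 83 without its CD24H or CD24L cells of the CD29 high gate, 63 without those CD24H cells of tumor 7 and 99 without those CD24L cells of tumor 1). The cause of these shifts was not tested, and the 6 arrays alone give no value for that test. The Cd24a difference stayed between 0.08 and 0.34 and never passed (adjusted p = 0.469 to 0.975). Among the named genes the 20 largest falls passed in each alternative in which they were tested, while the 20 largest rises lost the call in 6 to 14 alternatives each. With 60% of genes left out, the lower members were also 5 of 11 PDGF and VEGF genes, 2 of 6 Wnt ligands and antagonists, 3 of 10 TGF-beta receptors and antagonists, 3 of 7 mesenchymal factors and 1 of 1 endothelial gene, and with the mean of a gene's probe sets 1 TGF-beta ligand and 2 receptors and antagonists. The median of the mesenchymal factors was −0.27 without the CD29H CD24H cells of tumor 7. The block changed the counts as given here and beside the lists; the replicate numbers are tumors. Scaling moved the median of all genes from 0.05 to at most 0.11. With 3 tumors, values of signal alone and no detection calls, differences in dim genes are the least certain.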

Other observations

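Inflammatory mediators outside the chemokine list were also lower in CD29H CD24H cells; they were picked after their values were seen, so their number supports nothing. Il6, a cytokine of the acute phase response, gave 15176, 26625 and 13629.9 in CD29H CD24L and 2096, 1427 and 813 in CD29H CD24H cells of tumors 1, 2 and 7, without overlap (−3.68 ± 0.52, limma adjusted p = 0.000452). The colony-stimulating factors Csf2 (−3.34 ± 0.37) and Csf1 (−2.54 ± 0.33), the alarmin Il33 (−2.94 ± 0.35), Il11 (−2.52 ± 0.38) and the interleukin-1 receptor Il1r1 (−3.28 ± 0.40) were lower as well. Of 18 genes of inflammation, mostly cytokines and their receptors, 15 were lower (9 without the block), against 4.62% of all genes tested, and Il1b (0.16 ± 0.36, adjusted p = 0.870) and Il1a (−0.21 ± 0.50, adjusted p = 0.881) were among those that did not pass. Genes of the hyaluronan-rich matrix were lower in 5 of 9 cases: the hyaluronan synthase Has1, with 4246, 13534 and 2705 in CD24L and 232, 847 and 222 in CD24H cells (−3.80 ± 0.41, adjusted p = 7.46e-05), pentraxin Ptx3 (−3.95 ± 0.34) and the hyaluronan-linking protein Tnfaip6 (−3.80 ± 0.50) among them. Has2 differed by −1.27 ± 0.40 and did not pass (adjusted p = 0.0890).

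Imprinted genes, also picked after the values were seen, did not move as 1 group. Of 14 tested, 5 were lower (3 without the block), against 4.62% of all genes tested: Ndn, the noncoding Meg3 (−3.82 ± 0.43) and Rian (−3.14 ± 0.35) of 1 imprinted cluster, Grb10 (−2.74 ± 0.56) and the zinc finger gene Plagl1 (−1.56 ± 0.35). Igf2 (0.01 ± 0.45, adjusted p = 0.994) and Peg3 (−0.37 ± 0.55, adjusted p = 0.785) did not pass, and Peg3 was lower in tumor 1 and higher in tumors 2 and 7.

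The genes lower in CD29H CD24H cells were also compared in level with normal cells, which took no part in their choice. Their mean was 8.17 to 8.54 in CD29H CD24H cells and 10.5 to 11.04 in CD29H CD24L cells. It was 8.58 on both arrays of normal CD29H CD24P cells, 7.80 and 8.13 in normal CD29P CD24H cells and 11.4 on the single array of normal CD24L cells. Of 10092 probe sets without a single gene symbol, 6055 were tested; 54 were lower and 1 was higher.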
